A study of Mus musculus with 9 samples.

Results

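Collagen chains were described in livers of NSG mice, an immunodeficient strain without mature lymphocytes, that had received extracellular vesicles (EVs) through the tail vein. The members were the Ensembl features whose symbol has the form of a collagen alpha chain, and 44 of the 55414 Ensembl features in the deposited table met that form. The groups were 3 livers after EVs of MDA-MB-231 cells, a human line from a triple-negative breast carcinoma, 3 livers after EVs of MCF-10A cells, a human non-tumorigenic breast epithelial line, and 3 livers after phosphate-buffered saline (PBS). Injections ran for 5 weeks in every group, and the genotype label of the mice was WT. The labels give no EV dose and no age, and do not say whether each library is 1 animal, so p-values measure the spread between these libraries. Levels are in TPM, a unit of transcript abundance scaled for the length of each transcript and for the sum of its library, with no read depth left in it.

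Collagens are triple helices of 3 alpha chains, and a helix can join copies of 1 chain or of several. Fibrillar collagens such as types I and III assemble into the cable-like fibrils that accumulate in liver fibrosis, basement membrane collagen type IV forms a sheet-like network, and microfibrillar collagen type VI forms beaded filaments. In normal liver most fibrillar collagen is made by stellate cells and portal fibroblasts, type IV by stellate and endothelial cells, and type XVIII, a multiplexin whose C-terminal fragment is endostatin, also by hepatocytes.

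Col18a1, the type XVIII chain, carried most of the collagen TPM in all 9 livers, and no collagen chain passed the test in any comparison. Col18a1 was higher in each MDA-MB-231 EV liver than in any MCF-10A EV or PBS liver, at 181 against 179 TPM in the nearest pair with PBS. Col6a1, the type VI alpha-1 chain, was lower in each MCF-10A EV liver than in any PBS liver. Groups did not overlap for 6.03% of all tested genes in MDA-MB-231 EV against PBS. That share was 6.53% for MDA-MB-231 EV livers against MCF-10A EV livers and 7.69% for MCF-10A EV against PBS. The classic fibrosis chains Col1a1, Col1a2 and Col3a1 were at or below 8.13 TPM in every liver. Of the 44 chains, 28 were above 0 in all 9 libraries, 12 in some of them, and Col2a1, Col9a1, Col11a1 and Col19a1 were listed at 0 throughout; Col2a1 and Col11a1 are fibrillar chains of cartilage. A mean of at least 1 TPM over the 9 libraries, the filter of the test, was reached by 17 chains. Over all 12860 tested genes, limma called 0% for MDA-MB-231 EV against PBS, 0.218% for MDA-MB-231 EV livers against MCF-10A EV livers and 0.194% for MCF-10A EV against PBS.

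Promoter windows are shown for the members on which the results turn and whose start regions bear on how a gene's TPM can be read. They run from 250 bases before to 50 after a RefSeq start on build GRCm38.p6, while the submitters' processing notes name GRCm39. Col4a1 and Col4a2 encode the chains that combine in the common type IV helix and are transcribed in opposite directions from start sites 21 bases apart, so that their first bases overlap. The window of Col4a1, chr8:11312777-11313076 on the minus strand, and that of Col4a2, chr8:11312555-11312854 on the plus strand, share 78 bases, which are in capitals and are each other's reverse complement.
Col4a1: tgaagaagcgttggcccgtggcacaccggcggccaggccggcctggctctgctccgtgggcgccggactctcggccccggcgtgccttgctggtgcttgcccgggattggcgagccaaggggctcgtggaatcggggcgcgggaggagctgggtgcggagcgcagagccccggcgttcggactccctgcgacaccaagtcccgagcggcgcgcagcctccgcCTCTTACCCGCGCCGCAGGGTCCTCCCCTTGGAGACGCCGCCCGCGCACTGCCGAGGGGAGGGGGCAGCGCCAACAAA
Col4a2: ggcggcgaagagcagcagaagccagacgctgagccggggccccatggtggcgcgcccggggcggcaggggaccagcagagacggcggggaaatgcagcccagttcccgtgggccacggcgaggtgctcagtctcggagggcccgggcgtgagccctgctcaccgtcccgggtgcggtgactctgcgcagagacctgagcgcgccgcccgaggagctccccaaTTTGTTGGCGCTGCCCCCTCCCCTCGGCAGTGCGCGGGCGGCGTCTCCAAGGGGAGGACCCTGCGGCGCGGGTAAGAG
The sources used here do not say whether the library kit kept strand, so reads from the overlapping ends cannot be assigned to one gene.

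Col18a1 has RefSeq starts 52825 bases apart, and the downstream one is known to drive the long forms that are abundant in liver. The upstream window is chr10:77166481-77166780 and the downstream one chr10:77113656-77113955, both on the minus strand. Capitals mark GGGCGG, the core of a GC box, read on either strand.
Col18a1 upstream start: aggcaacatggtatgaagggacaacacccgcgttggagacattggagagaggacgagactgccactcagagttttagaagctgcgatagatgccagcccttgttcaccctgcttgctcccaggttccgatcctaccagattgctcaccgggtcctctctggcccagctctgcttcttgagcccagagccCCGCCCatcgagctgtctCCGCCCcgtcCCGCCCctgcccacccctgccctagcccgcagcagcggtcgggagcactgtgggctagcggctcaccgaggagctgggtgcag
Col18a1 downstream start: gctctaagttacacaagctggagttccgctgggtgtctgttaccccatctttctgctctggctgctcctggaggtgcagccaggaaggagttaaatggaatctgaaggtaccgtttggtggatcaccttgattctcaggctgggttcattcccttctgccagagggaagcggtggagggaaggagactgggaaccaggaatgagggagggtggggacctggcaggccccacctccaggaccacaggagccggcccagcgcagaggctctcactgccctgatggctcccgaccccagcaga
The upstream window held 3 matches and the downstream window held none. Over all RefSeq windows of this length 35.7% of 32851 held GGGCGG, and so did 23 of 38 windows of collagen chains, of which 35 chains matched the table. CCAAT stood in 37.4% of all windows and 13 of those 38, and the TATA-box letters TATAAA in 13.6% and 5. Both strands were searched, and no match of one motif contains a match of another. Gene-level TPM does not separate the starts of Col18a1.

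The libraries differed in ways that cross the groups. In the MCF-10A EV libraries every one of the 6059 loci assembled from the reads was at 0 and the column totals were 979351, 946777 and 934986 instead of 1000000, so that a difference in the authors' processing and the group cannot be told apart. MDA-MB-231 EV 3 and PBS 1 stood apart from the other 7 libraries in the nuclear transcript Xist, at 273 TPM in MDA-MB-231 EV 3 and 320 TPM in PBS 1 against 7.11 to 74.8 TPM elsewhere, and PBS 1 had 26.3% of its TPM in mitochondrially encoded genes. PBS 2 had 340 TPM summed over 6 fat markers against at most 7.28 TPM in any other library, and also the highest sums of portal fibroblast markers (13.9 TPM) and of smooth muscle markers (39.2 TPM). Hepatocyte markers were at 52.5 TPM or more in every library, while none of 5 mesothelial markers and none of 7 muscle, skin and cartilage markers had a mean of 1 TPM. MDA-MB-231 EV 3 held the highest sum of both sets. It had 5.66 TPM of muscle, skin and cartilage markers, against at most 0.94 TPM in any other library. Its mesothelial markers summed to 5.87 TPM, against at most 3.35 TPM elsewhere.

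**Figure D1:**
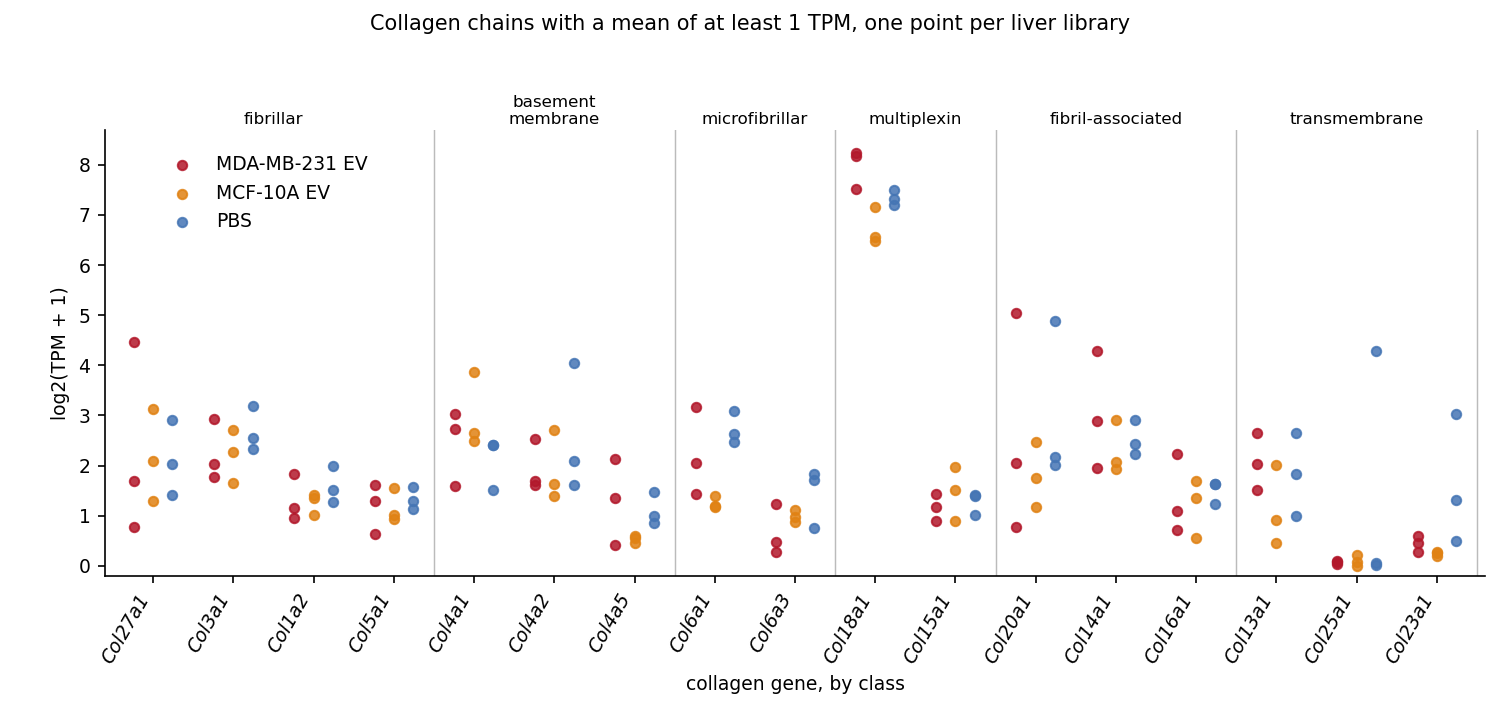
Level of each of the 17 collagen chains with a mean of at least 1 TPM, as log2(TPM + 1), with 1 point per liver library and chains grouped by class on the horizontal axis. Col18a1 stands above all other chains in every library, and Col27a1, Col20a1 and Col25a1 each have single points far from the rest of their group.

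Col18a1 had 299.5, 181 and 287 TPM in MDA-MB-231 EV livers, 143, 88.2 and 93.3 TPM in MCF-10A EV livers and 179, 146 and 159 TPM in PBS livers. All 3 MDA-MB-231 EV values lay above all 3 PBS values, though by little at the nearest pair, and all 3 MCF-10A EV values lay below them. On the log2(TPM + 1) scale, limma gave a change of 1.24 ± 0.39 (SE) between MDA-MB-231 EV and MCF-10A EV, with a 95% interval of 0.38 to 2.09, an unadjusted p of 0.00907 and an adjusted p of 0.833. Against PBS the log2 change was 0.63 ± 0.39 in MDA-MB-231 EV livers (95% interval -0.22 to 1.49, limma adjusted p = 1) and -0.60 ± 0.39 in MCF-10A EV livers (limma adjusted p = 1). Under the alternatives tried these changes ranged over 1.02 to 1.47 for MDA-MB-231 EV livers against MCF-10A EV livers, 0.37 to 0.86 for MDA-MB-231 EV against PBS and -0.82 to -0.47 for MCF-10A EV against PBS. Col18a1 was also among the steadier genes within groups, with a residual SD of 0.33 on the log2 scale at percentile 8.19 of all tested genes, whose median was 0.63.

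As a share of the summed TPM of all collagen chains, Col18a1 made up 81.0%, 86.5% and 73.4% in MDA-MB-231 EV livers, 75.1%, 70.6% and 70.6% in MCF-10A EV livers and 59.6%, 72.4% and 80.0% in PBS livers. The shares of the groups overlapped. Ranked among all Ensembl features, Col18a1 stood between place 387 in MDA-MB-231 EV 3 and place 919 in MCF-10A EV 2. Its gene, at chr10:77052178-77166548 on the minus strand of GRCm38 (GENCODE M21), overlaps Slc19a1 and Gm7775 on the opposite strand, and reads of overlapping parts cannot be assigned without strand. Of 6 hepatocyte markers, a cell type that makes Col18a1, Serpina1c had 3681, 4369 and 2043 TPM in MDA-MB-231 EV livers, 1399, 1594 and 1544 TPM in MCF-10A EV livers and 1820, 2913 and 4409 TPM in PBS livers. MCF-10A EV livers were thus below all others in Serpina1c, as in Col18a1. Cps1 had 878, 226 and 77.7 TPM in MDA-MB-231 EV livers, 527, 322 and 314 TPM in MCF-10A EV livers and 124, 132 and 227 TPM in PBS livers, so that MCF-10A EV livers lay above PBS livers. Alb, Ttr, Apoa1 and Hnf4a overlapped between groups in every comparison, and the part of hepatocytes in the Col18a1 levels was not tested. Col15a1, the other multiplexin chain, ranged from 0.85 to 2.91 TPM, with its highest value in MCF-10A EV 2.

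The sum of all 44 chains was 370, 209 and 391 TPM in MDA-MB-231 EV livers, 190, 125 and 132 TPM in MCF-10A EV livers and 301, 201 and 199 TPM in PBS livers. MCF-10A EV livers lay below all others, and MDA-MB-231 EV and PBS livers overlapped. Without Col18a1 the sum was 70.5, 28.3 and 104 TPM in MDA-MB-231 EV livers, 47.4, 36.7 and 38.9 TPM in MCF-10A EV livers and 121.5, 55.5 and 39.7 TPM in PBS livers, and all 3 groups overlapped.

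**Figure D2:**
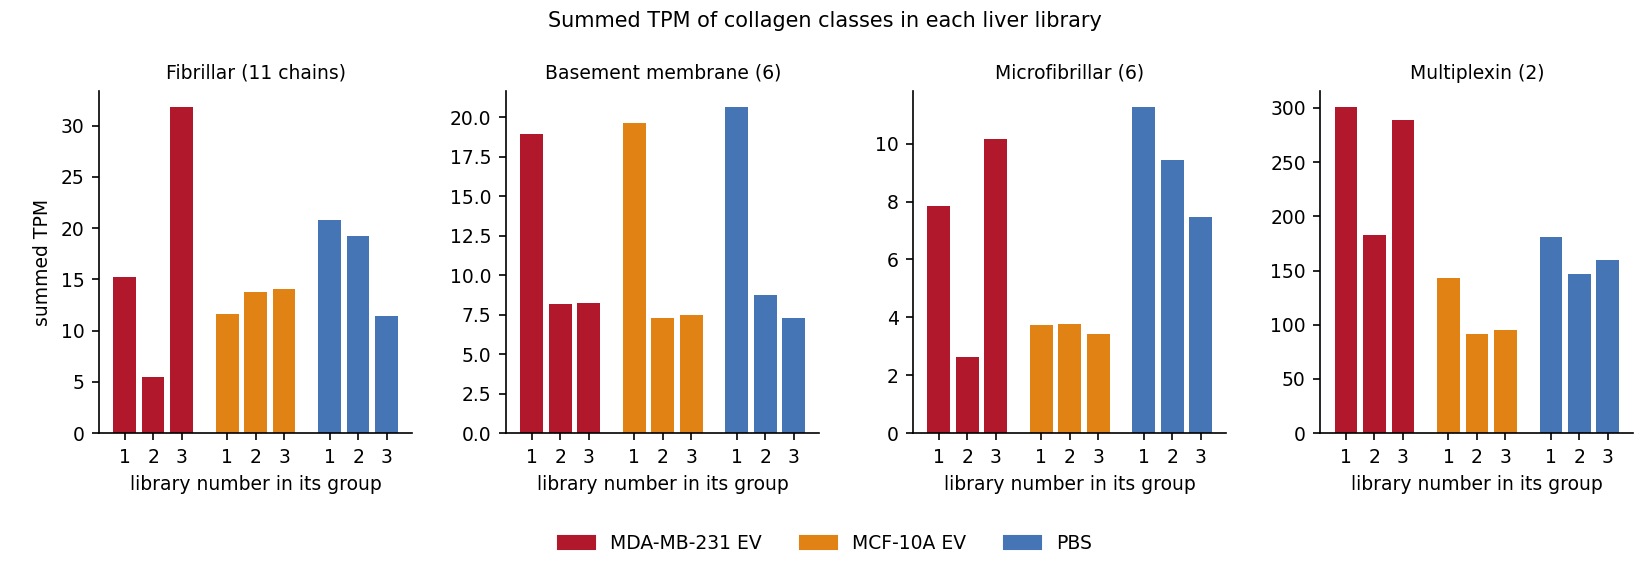
Summed TPM of fibrillar, basement membrane, microfibrillar and multiplexin chains in each of the 9 liver libraries, as bars from 0 on separate linear axes. The microfibrillar sums are 3.72, 3.76 and 3.42 TPM in MCF-10A EV livers, below the 11.3, 9.44 and 7.46 TPM of PBS livers, while 1 library in each group holds a basement membrane sum of 18.9 TPM or more.

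Fibrillar chains, 11 in all with 4 tested, summed to 15.3, 5.52 and 31.8 TPM in MDA-MB-231 EV livers, 11.6, 13.7 and 14.1 TPM in MCF-10A EV livers and 20.8, 19.2 and 11.4 TPM in PBS livers. The MDA-MB-231 EV group held both the lowest and the highest sum, and it overlapped both other groups. None of the 4 tested chains was called in any comparison. Their median log2 changes were -0.21 for MDA-MB-231 EV against PBS, 0.04 for MDA-MB-231 EV livers against MCF-10A EV livers and -0.25 for MCF-10A EV against PBS, beside medians of 0.21, 0.17 and 0.07 over all tested genes.

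Col3a1 forms the type III homotrimer, and its levels were 6.63, 2.40 and 3.07 TPM in MDA-MB-231 EV livers, 3.83, 5.55 and 2.13 TPM in MCF-10A EV livers and 4.87, 8.13 and 4.02 TPM in PBS livers. The groups overlapped, PBS 2 was highest, and the limma log2 change of MDA-MB-231 EV against PBS was -0.45 ± 0.46 (SE; adjusted p = 1). Col1a2, the second chain of type I, had 2.57, 0.95 and 1.22 TPM in MDA-MB-231 EV livers, 1.65, 1.57 and 1.03 TPM in MCF-10A EV livers and 1.41, 2.99 and 1.85 TPM in PBS livers. It also peaked in PBS 2 and overlapped between groups, with a log2 change of -0.28 ± 0.42 for MDA-MB-231 EV against PBS (limma adjusted p = 1).

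Col1a1, which supplies most chains of a type I helix, fell below the filter with a mean of 0.802 TPM. Its levels were 0.35, 0.47 and 0.33 TPM in MDA-MB-231 EV livers, 0.96, 1.20 and 0.26 TPM in MCF-10A EV livers and 1.01, 1.71 and 0.93 TPM in PBS livers. All 3 MDA-MB-231 EV values were below all 3 PBS values. A fit without the filter gave Col1a1 a log2 change of -0.66 ± 0.28 for MDA-MB-231 EV against PBS, with an unadjusted p of 0.0460 and a limma adjusted p of 1. PBS 2, the library with the fat, portal fibroblast and smooth muscle markers, held the highest Col1a1, Col1a2 and Col3a1, and the part of those cells in the result was not tested.

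Col5a1, a type V chain that nucleates type I fibrils, had 2.07, 0.55 and 1.45 TPM in MDA-MB-231 EV livers, 1.95, 0.91 and 1.02 TPM in MCF-10A EV livers and 1.46, 1.98 and 1.19 TPM in PBS livers. The groups overlapped, and its log2 change of -0.15 ± 0.43 for MDA-MB-231 EV against PBS (limma adjusted p = 1) became 0.12 without MDA-MB-231 EV 2. Col27a1, a fibrillar chain known from cartilage, had 2.23, 0.72 and 21.2 TPM in MDA-MB-231 EV livers, 1.46, 3.25 and 7.73 TPM in MCF-10A EV livers and 6.49, 3.08 and 1.68 TPM in PBS livers. MDA-MB-231 EV 3 alone stood far above the rest, and the log2 change of 0.20 ± 0.87 for MDA-MB-231 EV against PBS (limma adjusted p = 1) was -0.88 without that library and -0.15 without PBS 3. The other fibrillar chains stayed low, with highest values of 2.78 TPM for Col5a3, 1.43 TPM for Col11a2, 0.54 TPM for Col5a2 and 0.93 TPM for Col24a1. PBS 1 held 3 of these 4 highest values.

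Basement membrane chains, 6 in all with 3 tested, summed to 18.9, 8.20 and 8.22 TPM in MDA-MB-231 EV livers, 19.6, 7.32 and 7.45 TPM in MCF-10A EV livers and 20.6, 8.77 and 7.30 TPM in PBS livers. Each group thus had its library numbered 1 between 18.9 and 20.6 TPM and the others between 7.30 and 8.77 TPM, and different chains made up the high value in each. Col4a2 led in PBS 1, Col4a1 in MCF-10A EV 1, and Col4a1 together with Col4a4 in MDA-MB-231 EV 1. The median log2 changes of the 3 tested chains were 0.19 for MDA-MB-231 EV against PBS, 0.04 for MDA-MB-231 EV livers against MCF-10A EV livers and -0.57 for MCF-10A EV against PBS, and none was called. The medians against PBS are the values of Col4a5, which reached the filter only through MDA-MB-231 EV livers.

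Col4a1 had 7.16, 5.60 and 2.01 TPM in MDA-MB-231 EV livers, 13.5, 4.61 and 5.28 TPM in MCF-10A EV livers and 1.85, 4.31 and 4.31 TPM in PBS livers. Every MCF-10A EV value lay above every PBS value, the nearest pair being 4.61 and 4.31 TPM, with a log2 change of 0.89 ± 0.53 (SE; limma adjusted p = 1). The change was 0.28 to 1.15 under the alternatives, and for MDA-MB-231 EV against PBS it was 0.34 ± 0.53 with overlapping groups (limma adjusted p = 1). Col4a2, its partner in the helix, had 4.81, 2.25 and 2.07 TPM in MDA-MB-231 EV livers, 5.51, 2.10 and 1.62 TPM in MCF-10A EV livers and 15.6, 3.25 and 2.05 TPM in PBS livers. The groups overlapped, and 1 library set the sign: the log2 change of MDA-MB-231 EV against PBS was -0.63 ± 0.64 (limma adjusted p = 1) and 0.10 without PBS 1.

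The pair is transcribed from the shared region printed above and assembles together, but the ratio of Col4a1 to Col4a2 was uneven. It was 1.49, 2.49 and 0.971 in MDA-MB-231 EV livers, 2.46, 2.20 and 3.26 in MCF-10A EV livers and 0.119, 1.33 and 2.10 in PBS livers. MCF-10A EV ratios lay above all PBS ratios, MDA-MB-231 EV ratios overlapped both, and PBS 1 alone was far below 1.

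Col4a5, an X-linked chain of other type IV helices, had 1.56, 0.33 and 3.40 TPM in MDA-MB-231 EV livers, 0.38, 0.51 and 0.47 TPM in MCF-10A EV livers and 1.78, 0.99 and 0.81 TPM in PBS livers. MCF-10A EV values were below all PBS values with a log2 change of -0.57 ± 0.51 (SE; limma adjusted p = 1), and the change of MDA-MB-231 EV against PBS was 0.19 ± 0.51 (limma adjusted p = 1). Col4a5 reached the filter only through MDA-MB-231 EV livers, with a mean of 1.76 TPM there and 0.823 TPM over the other libraries. Its changes in comparisons with that group are a description only. Its genomic neighbour Col4a6, whose start lies 1309 bases away on the opposite strand, did not exceed 0.18 TPM. Col4a3 and Col4a4, known for the kidney glomerular basement membrane, have opposed starts 72 bases apart, and their peaks fell in different libraries. Col4a4 had 5.18, 0.02 and 0.08 TPM in MDA-MB-231 EV livers, 0.08, 0.06 and 0.04 TPM in MCF-10A EV livers and 0.04, 0.07 and 0.03 TPM in PBS livers, so that 1 library was 64.8 times the next. Col4a3 was highest in PBS 1, at 1.38 TPM, and was 0.03 TPM where Col4a4 peaked.

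Microfibrillar chains, 6 in all with 2 tested, summed to 7.84, 2.63 and 10.2 TPM in MDA-MB-231 EV livers, 3.72, 3.76 and 3.42 TPM in MCF-10A EV livers and 11.3, 9.44 and 7.46 TPM in PBS livers. MCF-10A EV livers lay below all PBS livers and close to each other, with a mean of 3.63 ± 0.186 TPM against 9.38 ± 1.90 TPM in PBS livers (SD, n = 3 each). The median log2 changes of the 2 tested chains were -0.64 for MDA-MB-231 EV against PBS, 0.32 for MDA-MB-231 EV livers against MCF-10A EV livers and -0.96 for MCF-10A EV against PBS, and neither was called.

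Col6a1, the chain without which a type VI helix does not form, had 3.14, 1.69 and 8.03 TPM in MDA-MB-231 EV livers, 1.28, 1.63 and 1.26 TPM in MCF-10A EV livers and 7.52, 4.52 and 5.20 TPM in PBS livers. MCF-10A EV livers lay below every other liver, and MDA-MB-231 EV livers overlapped PBS. The limma log2 change of MCF-10A EV against PBS was -1.48 ± 0.47 (SE), with a 95% interval of -2.51 to -0.44, an unadjusted p of 0.00984 and an adjusted p of 0.763. It was called only when limma weighted the libraries by their noise, at -1.38 and an adjusted p of 0.00346, a setting under which 548 genes were called instead of 25. MDA-MB-231 EV livers against MCF-10A EV livers gave 0.96 ± 0.47 (limma adjusted p = 1) and MDA-MB-231 EV against PBS gave -0.51 ± 0.47 (limma adjusted p = 1).

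Col6a2, the second chain of the type VI helix, lies next to Col6a1 on chromosome 10 and was just under the filter at a mean of 0.992 TPM. It had 1.66, 0.31 and 0.72 TPM in MDA-MB-231 EV livers, 0.68, 0.91 and 0.58 TPM in MCF-10A EV livers and 1.15, 1.77 and 1.15 TPM in PBS livers. MCF-10A EV values were again below all PBS values, and without the filter limma gave a log2 change of -0.45 ± 0.33 (adjusted p = 1). Col6a3, the largest classic chain and the source of endotrophin, had 1.36, 0.22 and 0.40 TPM in MDA-MB-231 EV livers, 0.83, 0.97 and 1.17 TPM in MCF-10A EV livers and 2.28, 2.58 and 0.70 TPM in PBS livers. These groups overlapped, with a log2 change of -0.77 ± 0.47 for MDA-MB-231 EV against PBS (limma adjusted p = 1), and Col6a3 reached the filter only through PBS livers, with a mean of 0.825 TPM over the other 6 libraries. The chains that can take the place of Col6a3 were low, with highest values of 0.67 TPM for Col6a5, 1.01 TPM for Col6a6 and 0.21 TPM for Col6a4.

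Ratios inside a library do not depend on its scaling, and here they separated groups for some pairs. Col1a1 over Col1a2 was 0.136, 0.495 and 0.270 in MDA-MB-231 EV livers, 0.582, 0.764 and 0.252 in MCF-10A EV livers and 0.716, 0.572 and 0.503 in PBS livers. Col3a1 over Col1a1 was 18.9, 5.11 and 9.30 in MDA-MB-231 EV livers, 3.99, 4.62 and 8.19 in MCF-10A EV livers and 4.82, 4.75 and 4.32 in PBS livers. MDA-MB-231 EV livers thus lay below PBS livers in the first ratio and above them in the second, at nearest values that differ little, and both ratios share the low Col1a1 values.

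Col6a1 over Col6a2 was 1.89, 5.45 and 11.2 in MDA-MB-231 EV livers, 1.88, 1.79 and 2.17 in MCF-10A EV livers and 6.54, 2.55 and 4.52 in PBS livers. Col6a3 over Col6a1 was 0.433, 0.130 and 0.0498 in MDA-MB-231 EV livers, 0.648, 0.595 and 0.929 in MCF-10A EV livers and 0.303, 0.571 and 0.135 in PBS livers. MCF-10A EV livers thus lay below all PBS livers in the first ratio and above them in the second, where the nearest values were 0.595 and 0.571. MDA-MB-231 EV 1, at 1.89, lay within the MCF-10A EV range of the first ratio. Both ratios share the low Col6a1 values, so they are not separate support for them. The processing of the MCF-10A EV libraries and the group cannot be told apart in these ratios either. No ratio was tested, and Col1a1, Col6a2 and Col6a3 are near or under 1 TPM, where a few reads can move a ratio.

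**Figure D3:**
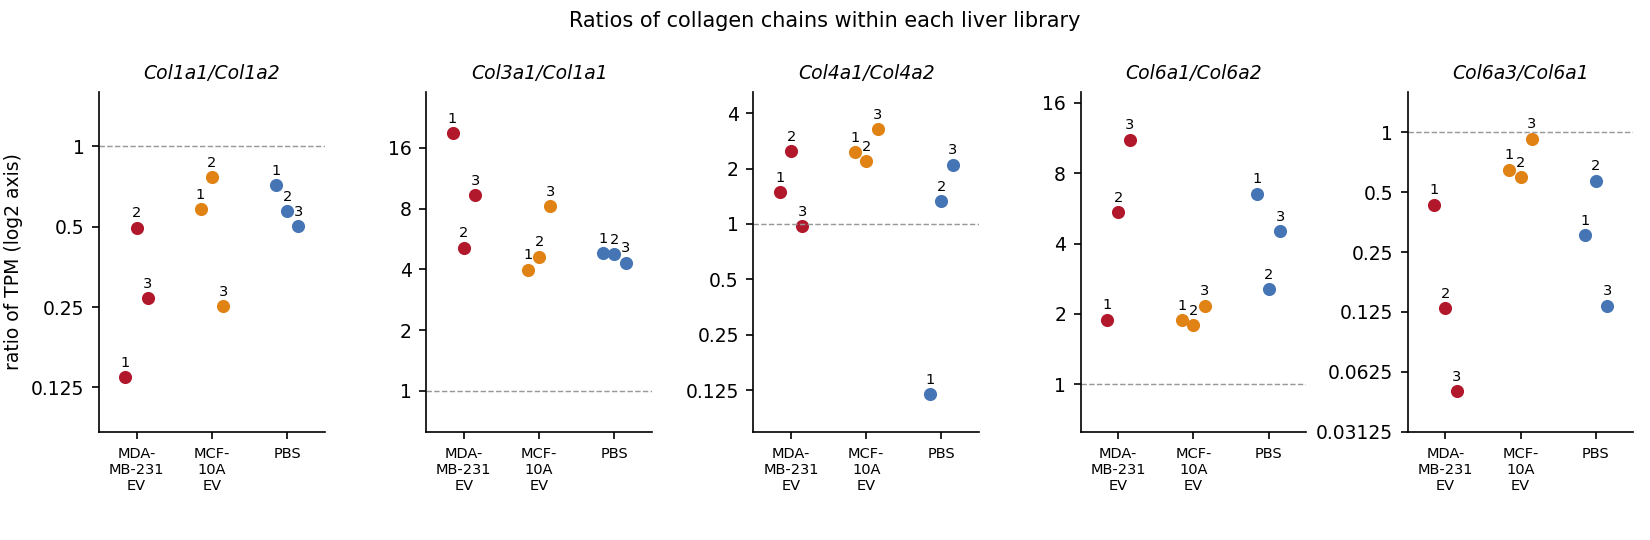
Ratio of TPM of collagen chains within each liver library on a log2 axis, with the library number beside each point and a dashed line at a ratio of 1. Col6a1/Col6a2 is close together in the 3 MCF-10A EV livers, from 1.79 to 2.17, and below all PBS livers, and Col4a1/Col4a2 is lowest in PBS 1, at 0.119.

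Among the remaining chains, Col14a1, a fibril-associated chain that binds along type I fibrils, ranged from 2.82 to 18.5 TPM and was highest in MDA-MB-231 EV 1. Col20a1, of the same class, ranged from 0.71 to 32.0 TPM and was high in 2 libraries only, MDA-MB-231 EV 3 (32.0 TPM) and PBS 1 (28.5 TPM), with at most 4.57 TPM elsewhere. Those are the libraries with the high Xist values, and the part of that difference in the result was not tested. Col16a1, also fibril-associated, ranged from 0.47 to 3.68 TPM, and the highest values of the low chains of this class were 2.20 TPM for Col12a1, 1.52 TPM for Col9a3, 0.30 TPM for Col22a1 and 0.08 TPM for Col9a2. MCF-10A EV livers had less Col12a1 than every PBS liver.

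Of the transmembrane chains, Col13a1, known from the neuromuscular junction, ranged from 0.38 to 5.31 TPM and reached its top value in both MDA-MB-231 EV 3 and PBS 1. Col25a1, known from neurons and muscle, was at 18.5 TPM in PBS 1 and at most 0.16 TPM in every other library, so its passing the filter rests on that library. Col23a1 had 0.22, 0.37 and 0.51 TPM in MDA-MB-231 EV livers, 0.14, 0.21 and 0.19 TPM in MCF-10A EV livers and 7.22, 0.42 and 1.5 TPM in PBS livers. MCF-10A EV livers lay below all other livers at these low levels, with limma log2 changes of -1.38 ± 0.62 against PBS (SE; adjusted p = 1) and of 0.21 ± 0.62 for MDA-MB-231 EV livers against MCF-10A EV livers (adjusted p = 1). Col23a1 reached the filter only through the PBS livers, with a mean of 3.05 TPM there and 0.273 TPM over the other 6 libraries, so its difference from PBS is a description only. Col17a1, a chain of epidermal attachment, did not exceed 0.55 TPM.

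The anchoring fibril chain Col7a1 reached 3.8 TPM in MDA-MB-231 EV 3 and at most 0.27 TPM elsewhere. The short-chain network collagens had highest values of 0.10 TPM for Col8a1, 0.14 TPM for Col8a2 and 0.02 TPM for Col10a1, a marker of hypertrophic cartilage. Col8a1 was higher in each MDA-MB-231 EV liver than in any MCF-10A EV liver at these levels. Col26a1 and Col28a1 did not exceed 0.02 and 0.07 TPM.

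Levels led by 1 library recurred across the family. In 5 chains the highest library reached at least 1 TPM and at least 3 times the next one: Col25a1 and Col23a1 in PBS 1, Col7a1 and Col9a3 in MDA-MB-231 EV 3, and Col4a4 in MDA-MB-231 EV 1. These are 18.5% of the 27 chains that reached 1 TPM in any library. The same held for 1545 of the 15408 Ensembl features (10.0%) that reached 1 TPM in any library and were above 0 in at least 1 other. Features above 0 in only 1 library are in neither count, so this share leaves out those most confined to 1 library. Within-group spread was widest for Col20a1, Col25a1 and Col27a1, at percentiles 96.6, 94.3 and 92.3 of the residual SD of all tested genes, and narrow for Col1a2, Col15a1 and Col5a1, at percentiles 12.0, 13.3 and 13.4. Means of the narrow chains were 1.40 to 1.69 TPM, where adding 1 TPM compresses differences on the log2 scale. Their highest library was 3.15 to 3.76 times the lowest. MDA-MB-231 EV 3 held the highest value of 6 of the 17 tested chains, counting its tie in Col13a1, and MDA-MB-231 EV 2 held the lowest value of 6.

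Between MDA-MB-231 EV and PBS livers, limma with Benjamini-Hochberg adjustment called 0 of 17 chains, beside 0 of 12860 tested genes (0%), of which 199 had an unadjusted p under 0.05 and none was a collagen chain. Col18a1 was the 1 tested chain whose groups did not overlap, beside 6.03% of all tested genes, which is near the share that 1 of 17 makes. Col4a5 reached the filter only through MDA-MB-231 EV livers, and Col23a1, Col25a1 and Col6a3 only through PBS livers. Without those chains it is 1 of 13. The median log2 change was -0.16 for the 17 chains, with 6 above 0 and 11 below, and 0.21 for all tested genes. Quantile normalization moved that median of all genes to 0.04, and Col18a1 was then at 0.37. It moved the median of all genes for MDA-MB-231 EV livers against MCF-10A EV livers to -0.0023, where Col18a1 was then at 1.02.

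Between MDA-MB-231 EV and MCF-10A EV livers, limma called 0 of 17 chains and 0.218% of all tested genes, which is 28 genes, and 15 genes with the replicate number as a block. Col18a1, Col6a1 and Col23a1 were higher without overlap, which is 3 of 17 beside 6.53% of all tested genes. Without Col4a5, which reached the filter only through MDA-MB-231 EV livers, it is 3 of 16. Of the chains that separate, Col23a1 reached the filter only through PBS livers, which are not part of this comparison. Its nearest pair was 0.22 against 0.21 TPM. The median log2 change was 0.15 for the chains, with 13 above 0 and 4 below, and 0.17 for all tested genes. Col18a1 was the 1 chain with an unadjusted p under 0.05, and 492 tested genes had one.

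Between MCF-10A EV and PBS livers, limma called 0 of 17 chains and 0.194% of all tested genes, which is 25 genes. Col4a1 was higher and Col6a1, Col18a1, Col4a5 and Col23a1 were lower without overlap, which is 5 of 17 beside 7.69% of all tested genes. Without Col23a1, Col25a1 and Col6a3, which reached the filter only through PBS livers, it is 4 of 14. The median log2 change was -0.48 for the chains, with 3 above 0 and 14 below, and 0.07 for all tested genes. Of the 14 chains that remain without Col23a1, Col25a1 and Col6a3, Col6a1 alone had an unadjusted limma p under 0.05. Col23a1 also had one, but it reached the filter only through PBS livers. Over all tested genes 411 had one. The comparisons share groups, so a chain that is low in MCF-10A EV livers enters both comparisons that use them.

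**Figure D4:**
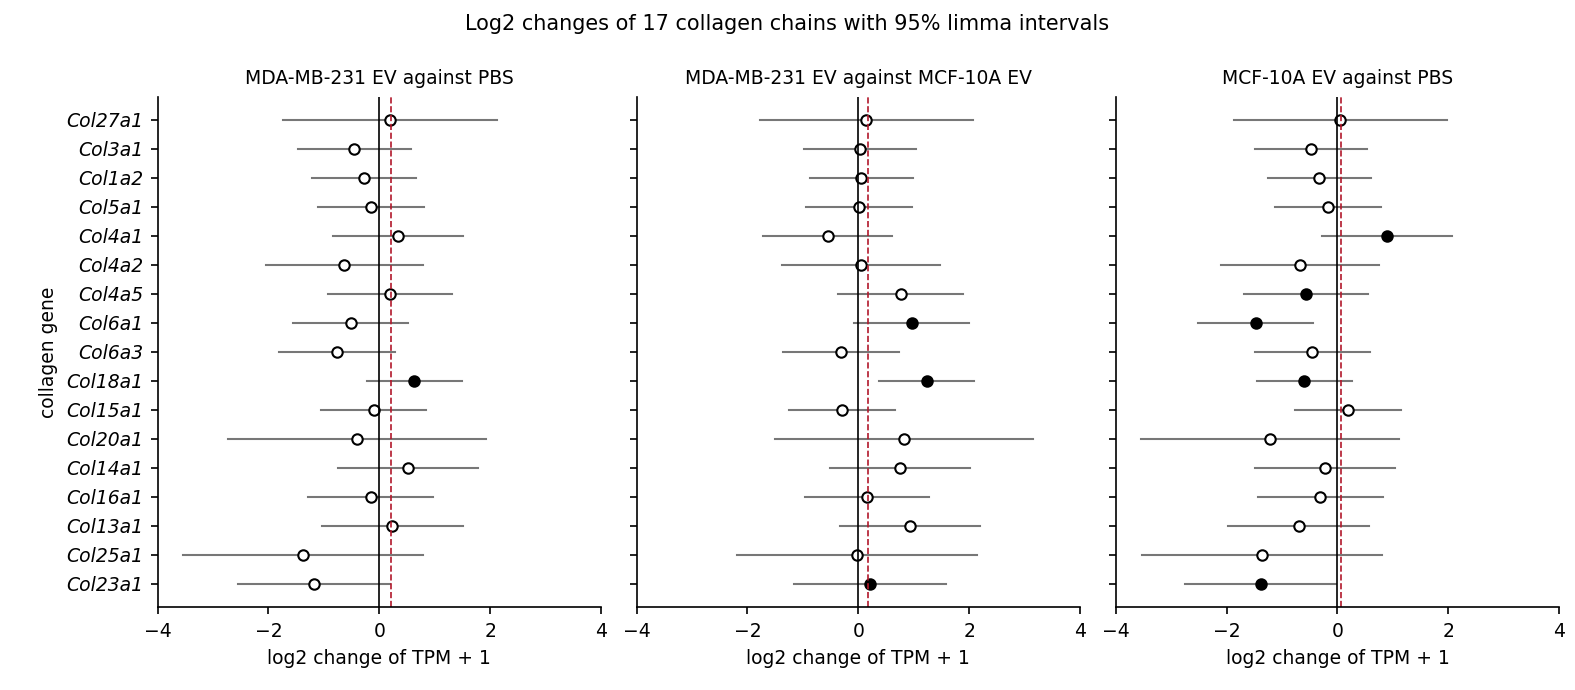
Log2 change of TPM + 1 for the 17 tested chains in the 3 comparisons, with 95% limma intervals as grey lines, filled points where the 2 groups do not overlap and a dashed line at the median of all tested genes. Intervals that leave out 0 belong to Col18a1 in MDA-MB-231 EV livers against MCF-10A EV livers and to Col6a1 and Col23a1 in MCF-10A EV against PBS, where Col23a1 reached the filter only through PBS livers, and none of these passed the adjusted threshold.

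Of the marker sums of collagen-making cells given here, only that of stellate cells separated MCF-10A EV livers from all others. Summed over 10 stellate cell markers, of which 9 had a mean of at least 1 TPM, libraries held 172, 65.0 and 87.2 TPM in MDA-MB-231 EV livers, 52.0, 39.8 and 36.2 TPM in MCF-10A EV livers and 78.2, 96.3 and 73.8 TPM in PBS livers. MCF-10A EV livers were below all others, as they were in Col6a1 and in the sum of all chains. Of the 9 tested markers, 3 (Rgs5, Hgf and Colec11) did not overlap between MCF-10A EV and PBS livers, beside 7.69% of all tested genes. The pericyte and stellate marker Rgs5 had 28.9, 19.3 and 25.1 TPM in MDA-MB-231 EV livers, 6.59, 9.84 and 6.67 TPM in MCF-10A EV livers and 27.8, 36.6 and 26.4 TPM in PBS livers. Its limma log2 change was -1.85 ± 0.36 for MCF-10A EV against PBS (SE; adjusted p = 0.112) and 1.55 ± 0.36 for MDA-MB-231 EV livers against MCF-10A EV livers (adjusted p = 0.333). Lrat, the enzyme that stores vitamin A in stellate cells, was between 0.98 and 5.45 TPM and overlapped between groups. In bulk tissue fewer cells of a type and less RNA per cell cannot be told apart, and the part of stellate cells in the collagen levels was not tested.

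Sinusoidal endothelial markers, all 7 with a mean of at least 1 TPM, summed to 281, 140 and 351 TPM in MDA-MB-231 EV livers, 118, 126 and 173 TPM in MCF-10A EV livers and 302, 236 and 136 TPM in PBS livers, with overlap. Smooth muscle and myofibroblast markers summed to 6.11, 5.06 and 12.3 TPM in MDA-MB-231 EV livers, 5.63, 18.7 and 4.25 TPM in MCF-10A EV livers and 21.8, 39.2 and 7.64 TPM in PBS livers, with overlap. Portal fibroblast markers also overlapped. They summed to 4.86, 2.94 and 5.38 TPM in MDA-MB-231 EV livers, 7.92, 6.25 and 2 TPM in MCF-10A EV livers and 4.47, 13.9 and 3 TPM in PBS livers. No gene of any marker list was called in any comparison.

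The genes that make, cut and bind collagen were read from 7 lists, in which 0 tested genes were called in any comparison. Of 20 enzymes and chaperones of collagen synthesis 14 were tested, with a median log2 change of 0.03 for MDA-MB-231 EV against PBS, -0.07 for MDA-MB-231 EV livers against MCF-10A EV livers and 0.12 for MCF-10A EV against PBS. Colgalt1, which adds galactose to collagen hydroxylysines, had 35.9, 21.9 and 22.1 TPM in MDA-MB-231 EV livers, 33.5, 9.51 and 7.96 TPM in MCF-10A EV livers and 10.0, 14.7 and 12.1 TPM in PBS livers. All MDA-MB-231 EV values were above all PBS values, with a limma log2 change of 1.03 ± 0.52 (adjusted p = 1). Plod3, a lysyl hydroxylase, had 12.9, 20.04 and 30.5 TPM in MDA-MB-231 EV livers, 16.9, 9.58 and 9.20 TPM in MCF-10A EV livers and 26.3, 21.1 and 18.4 TPM in PBS livers. MCF-10A EV values were below all PBS values, with a limma log2 change of -0.87 ± 0.42 (adjusted p = 1). Crtap, a subunit of the prolyl 3-hydroxylation complex, had 13.3, 11.9 and 6.16 TPM in MDA-MB-231 EV livers, 19.3, 16.3 and 15.5 TPM in MCF-10A EV livers and 5.77, 16.2 and 20.7 TPM in PBS livers. MDA-MB-231 EV values were below all MCF-10A EV values, with a limma log2 change of -0.71 ± 0.49 (adjusted p = 1).

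Among 13 partners of fibrils, 7 of them tested, Tnxb, a tenascin that links collagen fibrils, had the smallest unadjusted p. It had 6.43, 5.10 and 25.3 TPM in MDA-MB-231 EV livers, 2.48, 3.12 and 2.62 TPM in MCF-10A EV livers and 17.6, 13.1 and 12.5 TPM in PBS livers. MCF-10A EV livers were below all others, as for Col6a1, with limma log2 changes of -2.03 ± 0.52 against PBS (unadjusted p = 0.00280, adjusted p = 0.405) and 1.51 ± 0.52 for MDA-MB-231 EV livers against MCF-10A EV livers (adjusted p = 1). Against PBS it was called under library weights (adjusted p = 0.000539), in a fit of those 2 groups alone (adjusted p = 0.0359) and without MDA-MB-231 EV 3 (adjusted p = 0.0257).

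For MDA-MB-231 EV against PBS the median log2 change was 0.21 in those fibril partners, 0.14 in 5 tested of 13 genes of propeptide removal and crosslinking, and 0.22 in 5 tested of 12 genes of collagen breakdown. It was 0.39 in 3 tested of 9 collagen receptors and -0.12 in 8 tested of 10 basement membrane partners. For MDA-MB-231 EV livers against MCF-10A EV livers the medians of these lists, in the same order, were 0.59, 0.46, -0.03, 0.11 and 0.21, and for MCF-10A EV against PBS -0.28, -0.48, 0.39, 0.22 and -0.28. Apart from the marker lists, no list other than the fibril partners held a gene with an unadjusted limma p under 0.05 in any comparison. Adamts2, which removes the N-propeptide of fibrillar procollagens, was higher in every MDA-MB-231 EV liver (1.09, 2.57 and 4.72 TPM) than in MCF-10A EV livers (0.95, 0.99 and 0.74 TPM), with 1.19, 1.25 and 0.85 TPM in PBS livers. The nearest pair was 1.09 and 0.99 TPM, and Adamts2 reached the filter only through MDA-MB-231 EV livers. Its changes in comparisons with that group are a description only. The collagenase Mmp8 and the gelatinase Mmp9 stood at 9.03 and 9.02 TPM in MCF-10A EV 1 and at most 0.53 and 0.48 TPM in any other library. Transforming growth factor beta signalling is known to drive collagen transcription in stellate cells. All 9 of its tested genes had a log2 change above 0 for MDA-MB-231 EV against PBS, beside 69.7% of all tested genes. Their median was 0.54 beside 0.21 for all tested genes. For MCF-10A EV against PBS 8 of the 9 were above 0, beside 56.8% of all tested genes, with a median of 0.43 beside 0.07. For MDA-MB-231 EV livers against MCF-10A EV livers 6 were above 0, beside 65%, with a median of 0.12 beside 0.17. Summed over the 11 listed genes, MDA-MB-231 EV livers held 55.77, 23.73 and 25.35 TPM and MCF-10A EV livers 92.18, 16.42 and 20.25 TPM. PBS livers held 15.6, 27.9 and 17.45 TPM. All groups overlapped, and the library numbered 1 was highest in each EV group. The smallest unadjusted p was 0.104, for Smad4, a signal transducer of that pathway. Smad7, its inhibitor, had 5.86, 1.06 and 1.36 TPM in MDA-MB-231 EV livers, 3.68, 1.41 and 1.29 TPM in MCF-10A EV livers and 0.94, 1.13 and 1.14 TPM in PBS livers. MCF-10A EV values were above all PBS values, with a limma log2 change of 0.52 ± 0.53 (adjusted p = 1).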

How the data were processed

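Liver RNA of 9 NSG mouse samples, 3 per group, was sequenced. Per the labels, TruSeq libraries started from 1 µg of RNA. The authors deposited TPM per gene, and HISAT2, StringTie and RSEM with build GRCm39 are named in the submitters' processing notes without order; further settings are not given in the sources used here. Depth is unknown, so no counting intervals are given. All sample columns were used.

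From the deposited TPM, log2(TPM + 1) of the 12860 Ensembl features with a mean of at least 1 TPM was fitted in R 4.3.3 by limma 3.58.1, using a trended prior, one mean per group and all 9 libraries. P-values were two-sided and adjusted by Benjamini-Hochberg over all tested genes, and genes were called at an adjusted p under 0.05. The fit was tested on simulated data with less spread than these libraries and larger changes than any collagen chain showed. That test does not show which changes could be detected here. A non-overlap means that every library of a group lies beyond every library of the other. Class sums, ratios and motif searches (Python 3.11.15, pandas 2.3.3) carry no test. Loci are from GENCODE M21 and promoters from RefSeq, both on GRCm38, matched by Ensembl ID and symbol.

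Every tested fibrillar, basement membrane and microfibrillar chain was named with all values, other tested chains with their range, chains under 1 TPM with their highest value, and list genes from the 3 with the smallest p in each list. Of those list genes, the text gives values for the ones whose groups separate, plus Mmp8 and Mmp9, and the p of Smad4. Col1a1, Col6a2, Col4a4 and Col23a1 were given in full after their values were seen. The members and lists were chosen with earlier results of these data known.

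Replicate numbers come from the labels, which do not say what they mark. Deviations of same-numbered libraries from their group means correlated at 0.336, 0.110 and 0.436 between MDA-MB-231 EV livers and MCF-10A EV livers, so a replicate block is given beside that comparison. For MDA-MB-231 EV against PBS they were -0.284, 0.500 and -0.389, and for MCF-10A EV against PBS -0.206, -0.0897 and -0.158. Alternatives changed the pseudocount, filter, scaling, weights, block and libraries.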

Additional observations from a re-analysis of the deposited data

How the results depend on the processing

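No collagen chain was called under any alternative tried, except Col6a1 for MCF-10A EV against PBS under limma array weights, where 1 chain was called. For that comparison the 25 called genes became 40 with a pseudocount of 0.1, 12 without the filter, 548 with array weights, 66 with only those 2 groups, 85 without PBS 1 and MDA-MB-231 EV 3, and 14 to 59 when 1 library was left out. The called genes of the 7 collagen pathway lists became 2 with array weights (Tnxb and Plod3), 1 with only those 2 groups (Tnxb), and 0 to 1 (Tnxb) when 1 library was left out. For MDA-MB-231 EV livers against MCF-10A EV livers the 28 called genes became 11 without the filter, 17 at a mean of at least 5 TPM, 46 with array weights, 17 with only those 2 groups and 13 to 31 when 1 library was left out. The replicate block gave 15 there, and 12 in a fit of only those 2 groups, which was added after seeing the data; the block changed the call of no collagen chain, and for the comparisons with PBS, where the numbers do not pair the samples, it gave 0 genes for MDA-MB-231 EV and 20 for MCF-10A EV. For MDA-MB-231 EV against PBS the count of 0 became 28 without PBS 1 and MDA-MB-231 EV 3 together and 0 to 24 when 1 library was left out. The causes of these moves were not tested.

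Over all 17 tested chains, the direction turned under at least 1 alternative for 8 chains in MDA-MB-231 EV against PBS, 8 in MDA-MB-231 EV livers against MCF-10A EV livers and 7 in MCF-10A EV against PBS. For MDA-MB-231 EV against PBS these were Col4a2, Col5a1, Col13a1, Col14a1, Col15a1, Col16a1, Col20a1 and Col27a1. Col20a1 was at 0.53 without PBS 1. Col4a2 was at 0.28 with array weights, 0.27 without PBS 1 and MDA-MB-231 EV 3, and -1.12 to 0.10 when 1 library was left out. Col27a1 was at -0.49 without both libraries and -0.88 to 0.96 when 1 was left out, and Col5a1 at -0.37 to 0.12 when 1 was left out. Rescaling without mitochondrially encoded genes moved mean class sums in MCF-10A EV livers to 15.0 TPM (fibrillar) and 4.12 TPM (microfibrillar), and in PBS livers to 293 TPM (all chains) and 11.7 TPM (microfibrillar). With 3 libraries in a group, leaving out 1 moves a mean by less than 1 SD whatever the values. The mean chain ratios therefore have no such check. Most chains lie under 10 TPM and the depth is unknown, so small differences were not detectable here.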
